A study of Mus musculus with 11 samples.

Results

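The genes described here carry choline into the cell and build it into phosphatidylcholine, the main phospholipid of cell membranes and of the surface layer of lipid droplets. Members were a list of 10 named genes, matched by symbol among the 15453 genes of the per-mouse tables, and 9 were measured. They were the choline carriers Slc5a7, Slc44a1 and Slc44a2, choline kinase alpha (Chka), the CDP-forming enzymes Pcyt1a and Pcyt2, phosphatidylethanolamine N-methyltransferase (Pemt), and the phosphotransferases Cept1 and Chpt1. Chkb, the second choline kinase, was not analysed here. The list was drawn up knowing that Slc5a7 differed between genotypes in these mice, so the genotype difference of Slc5a7 is described without a test and the 8 other members were tested.

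Epididymal white adipose tissue (eWAT) came from 11 mice, of which 6 were wildtype (WT) and 5 were Mest+/- with a paternal knockout (pKO). All were C57BL/6 males, killed when 16 weeks old, whose high fat diet had started at 8 weeks. Mest is an imprinted gene expressed from the paternal allele. The pKO mice inherited from their fathers an allele that lacks 1 exon, made with a cre active in the early embryo, so that every tissue carries the deletion, and their maternal allele is intact. WT mice were littermates from the same type of cross. The study selected the mice from a larger cohort, and the selected WT mice were fatter than the pKO mice, so genotype and adiposity cannot be told apart.

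Cells assemble phosphatidylcholine mainly by the CDP-choline route. Choline is taken up, phosphorylated by choline kinase, activated to CDP-choline by the PCYT1 enzymes, and joined to diacylglycerol by CHPT1 or CEPT1. PCYT2 acts in the parallel CDP-ethanolamine branch, which CEPT1 also completes. PEMT makes phosphatidylcholine by a separate route, methylating phosphatidylethanolamine with S-adenosylmethionine, and is best known in liver. SLC5A7 is the high-affinity, sodium-coupled choline transporter, known chiefly from cholinergic nerve endings, whereas SLC44A1 is a widely expressed choline carrier of lower affinity.

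Expression was measured by serial analysis of gene expression (SAGE). A short tag is cut next to the last NlaIII site, CATG, before the poly(A) tail, so a transcript gives 1 tag whatever its length and tag numbers can be compared between genes. Values are normalized tags, that is, tag counts scaled by the size factor of each library. WT libraries held 9659740 to 14825727 tags and pKO libraries 11320342 to 14626803. The lowest count behind any value of a member was 84 tags, for Slc44a2. Mest itself ran from 20756 to 27897 normalized tags in WT mice and was at 1479, 793, 1978, 2275 and 1792 in pKO replicates 1 to 5, or 6.63% of the WT mean. In the 3 longest annotated Mest transcripts the last tag lies in the final exon, which is not the deleted one, so a tag there does not check the deletion itself. The tissue label was met by the adipocyte markers, with Adipoq at a median of 61019 in WT and 84933 in pKO mice. Of the 7 adipocyte markers, 5 had a higher and 2, Lep and Lipe, a lower mean in pKO mice on the log2 scale.

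Tags predicted for members show where the last NlaIII site lies in an annotated transcript, and the tags that were counted may differ. They were read from the GENCODE M21 transcripts of the GRCm38 build, for the first listed transcript of each gene, from 5′ to 3′ with the NlaIII site in capitals. The set shown holds the 3 carriers, whose levels the results turn on, and the 2 enzymes that close the CDP-choline route.
Slc5a7: CATGtatgtgttcaaatgtaataatac
Slc44a1: CATGgatcatagcttcctgtccccacc
Slc44a2: CATGtcttccactctcaagaaactctt
Cept1: CATGcagataatgtggtaactttgtca
Chpt1: CATGtttaatttttagttaaatgttat

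The Slc5a7 tag lies at chr17:54273620-54273646 on the minus strand, in the 3′ UTR part of exon 9 of 9, and no other annotated gene overlaps Slc5a7. For Slc44a1 the tag is at chr4:53622409-53622435 on the plus strand, in the 3′ UTR of exon 16 of 16. The Slc44a2 tag, at chr9:21353728-21353754 on the plus strand, falls in coding sequence of exon 22 of 22, 1298 bases before the end of that transcript. Cept1 has its tag at chr3:106503022-106503048 on the minus strand, in the 3′ UTR of exon 9 of 9, where the end of Dennd2d overlaps it on the other strand. The Chpt1 tag, at chr10:88472853-88472879 on the minus strand, is in the 3′ UTR of exon 8 of 8, and there Sycp3 overlaps on the other strand. The Pcyt1a tag overlaps Slc51a in the same way. Whether tags were assigned by strand is not given in the sources used here, so reads of these pairs may not be separate. None of these 5 tags was shared with, or within 2 mismatches of, the last tag of another annotated gene. Each member has 2 or more different last tags across its annotated transcripts, and the tags that were summed for a gene are not given. Among protein-coding transcripts, the tag shown was the last tag in 1 of 2 for Slc5a7, 1 of 5 for Slc44a1 and 4 of 4 for Slc44a2. It was the last tag in 2 of 6 for Cept1 and 1 of 6 for Chpt1.

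Slc5a7 was the carrier with the most tags in all WT mice, and it was lower in every pKO mouse than in any WT mouse. Its normalized tags in WT replicates 1 to 6 were 1809.7, 1911, 1879.9, 2499.6, 1549 and 1662. In pKO replicates 1 to 5 they were 613, 835, 1076, 889.6 and 846. The highest pKO mouse, replicate 3, stood well below the lowest WT mouse, replicate 5, so the ranges were apart. Of 9906 genes that reached a mean of 50 in either genotype, 1.43% had ranges that were apart, and nothing is read from that share for Slc5a7, which was chosen for its difference. The WT mean was 1885 ± 331 (SD, n = 6) and the pKO mean 852 ± 165 (SD, n = 5), a 2.21-fold lower level in pKO mice. On the log2(value + 1) scale the difference, pKO minus WT, was -1.15 (standard error 0.16), with a 95% interval from -1.49 to -0.81. The interval takes no account of the choice of Slc5a7 for its difference, so it is a description and not a test. In a bulk tissue, fewer cells that express a gene and less RNA per cell cannot be told apart.

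Slc44a1, the widely expressed carrier, was nearly constant in WT mice and spread more widely in pKO mice. Values in WT mice ran from 396 to 456 with a median of 436, and pKO replicates 1 to 5 had 329.6, 450.4, 490.4, 539 and 545. Of the pKO mice, 3 lay above the highest WT mouse, 1 below the lowest and 1 within the WT range. The coefficient of variation was 4.92% in WT and 18.7% among pKO mice, and the difference in spread was not tested. The WT mean was 429.7 ± 21.2 (SD, n = 6) and the pKO mean 471 ± 88.0 (SD, n = 5). The log2 difference was 0.11 (standard error 0.14, adjusted p = 0.84 from limma), and its 95% interval in linear terms reached from 0.878-fold to 1.33-fold of WT.

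Slc44a2, a second carrier of the same family, had few tags and overlapping ranges. WT mice ranged from 85.9 to 219 with a median of 156, and pKO replicates 1 to 5 had 176, 96.3, 149.6, 265 and 113. The genotype means were close, 159 ± 49.4 (SD, n = 6) for WT against 159.8 ± 66.4 (SD, n = 5) for pKO. Its log2 difference of -0.02 (standard error 0.28, adjusted p = 0.99, limma) changed sign under other processing, and the interval from 0.649-fold to 1.499-fold leaves room for sizeable change in either direction.

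The carriers therefore stood in different proportions in the genotypes, which follows from Slc5a7. In WT mice there were 3.53 to 5.68 Slc5a7 tags for each Slc44a1 tag, with a median of 4.28. pKO replicates 1 to 5 had 1.86, 1.86, 2.19, 1.65 and 1.55. Slc5a7 gave 71.2% to 77.9% of the tags of Slc5a7, Slc44a1, Slc44a2 and Slc44a3 in WT mice. It gave 51.3%, 58.6%, 60.7%, 50.8% and 54.6% in pKO replicates 1 to 5, so it still gave most of the tags of these 4 genes in each pKO mouse. Because these shares hold the values that chose Slc5a7, they are a description only.

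**Figure D1:**
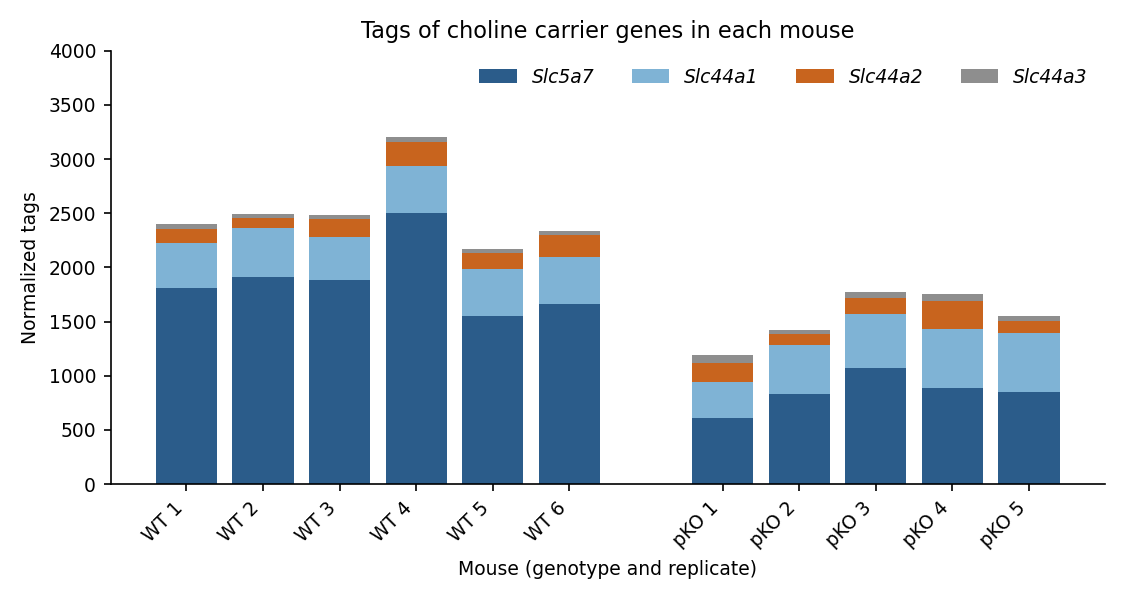
Stacked bars give the normalized tags of Slc5a7, Slc44a1, Slc44a2 and Slc44a3 in each of 6 WT and 5 pKO mice on a linear axis from 0. The Slc5a7 segment is shorter in every pKO bar (613 to 1076) than in any WT bar (1549 to 2499.6), whereas the Slc44a1 segment (396 to 456 in WT, 329.6 to 545 in pKO mice) overlaps between genotypes.

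Genes that mark nerve tissue had few tags in the same libraries. Of 10 neuron markers, 6 were measured, and their summed level was 46.6 to 82.0 for WT against 53.9 to 103 for pKO, below the Slc5a7 level in each mouse. Elavl4 was listed at 0 in 5 of the 11 mice. Tubb3, a neuronal tubulin, gave the most tags of the 6, at 33.6 ± 6.01 (SD, n = 6) for WT against 32.9 ± 5.33 (SD, n = 5) for pKO. Gap43, a growth-associated protein of axons, was the 1 neuron marker at an unadjusted p of at most 0.05, with 3.13 ± 2.18 (SD, n = 6) for WT against 8.41 ± 3.19 (SD, n = 5) for pKO and a log2 difference of 1.35 (standard error 0.47, adjusted p = 0.40, limma). The summed neuron markers overlapped between genotypes, and the part of nerve tissue in the Slc5a7 difference was not tested. Ache, which breaks down acetylcholine at synapses, was at 0 to 6.80 normalized tags, whereas Bche, the butyrylcholinesterase, was at 2574 ± 441 (SD, n = 6) for WT against 3109 ± 467 (SD, n = 5) for pKO. The log2 difference of Bche was 0.28 (standard error 0.15, adjusted p = 0.57, limma). Chat and the vesicular acetylcholine transporter Slc18a3, the other listed cholinergic genes, were not analysed here.

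Markers of macrophages, mesothelium and stroma were compared in the same way, and none passed the adjusted threshold in limma. All 7 macrophage markers had lower means in pKO mice on the log2 scale. For Emr1 the log2 difference was only -0.01, with linear means of 856 in WT and 865 in pKO mice. At an unadjusted p of at most 0.05, which 9.55% of all genes passed, there were 2 of the 7. These were Itgax, with a log2 difference of -0.90, and Cd14, with -0.45. The summed macrophage level was 3273 to 4674 for WT against 2901 to 4098 for pKO. The 7 mesothelial markers all had higher means in pKO mice, 3 of them at that unadjusted threshold. DESeq2 called 2 of the 7, where it called 0.868% of 13937 genes. Mesothelial sums were 1179 to 1614 for WT against 1427 to 2881 for pKO. Adipocyte, endothelial and stromal markers each had 1 gene at the unadjusted threshold (Pnpla2, Kdr and Dcn), all higher in pKO mice. Lymphocyte markers had 0, and DESeq2 called 1 adipocyte marker. Sums of 6 stromal markers were 43653 to 52693 for WT against 53916 to 58521 for pKO, without overlap, although 3 of the 6 had a higher and 3 a lower mean in pKO mice on the log2 scale (median difference 0.05). Dcn, at 21573 for WT against 27841 for pKO on average, gave the most stromal tags. No macrophage, mesothelial or stromal marker was at 0 in the median mouse of either genotype. The part of these markers in the Slc5a7 difference was not tested.

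None of the 8 tested members passed an adjusted p of at most 0.1 in limma, against a background of 0.0324% of the 15453 genes called in either direction, 0.0259% lower and 0.00647% higher in pKO mice. Counts were also 0 of 8 with edgeR (0.0324% of genes called) and with DESeq2 (0.868% of 13937 genes). At an unadjusted p of at most 0.05 the count was again 0 of 8, where 9.55% of all genes passed, and 10.6% of those with a mean of 50 or more. The lowest adjusted p of the 8 was 0.68, for Chka. Their median log2 difference was 0.07, with 5 above and 3 below 0, beside a median of 0.0086 and 51.3% above 0 for the genes that reached a mean of 50. A p that misses the threshold does not show equal levels, and the intervals below give the changes that the data still allow.

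**Figure D2:**
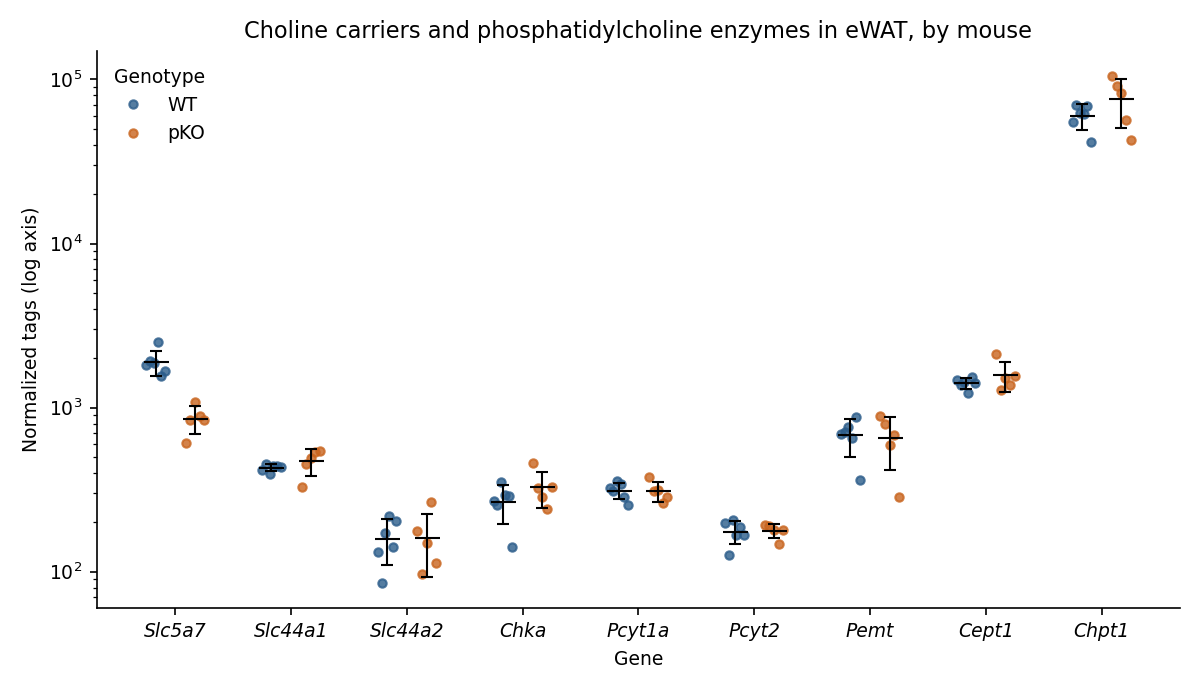
Each point is the normalized tag value of 1 mouse on a log axis for the 9 measured genes, in 6 WT and 5 pKO mice, with horizontal bars at the mean and error bars of 1 SD. The Slc5a7 points of the genotypes are apart (1549 to 2499.6 against 613 to 1076), the points of the other 8 genes overlap, and Chpt1 stands far above the rest (41343 to 104853).

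Chka makes phosphocholine, the step that traps choline in the cell. WT mice ranged from 141 to 353 with a median of 279, and pKO replicates 1 to 5 had 458, 322, 284, 242 and 328. All pKO mice except replicate 1 fell within the WT range, which WT replicate 6 extended downwards. The WT mean was 267 ± 70.1 (SD, n = 6) and the pKO mean 327 ± 80.9 (SD, n = 5), with a log2 difference of 0.31 (standard error 0.22, adjusted p = 0.68, limma) and an interval from 0.8898-fold to 1.73-fold of WT. Without WT replicate 6 the difference was 0.14, and without pKO replicate 1 it was 0.18.

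Pcyt1a activates phosphocholine to CDP-choline and is regarded as the rate-setting enzyme of the route. Its WT values were 256 to 355 with a median of 317, and pKO replicates 1 to 5 had 377, 308, 315, 263 and 284. With means of 312 ± 36.6 (SD, n = 6) for WT against 309.6 ± 42.9 (SD, n = 5) for pKO, the log2 difference was -0.01 (standard error 0.13, adjusted p = 0.99, limma). The 95% interval ran from 0.811-fold to 1.21-fold of WT.

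Pcyt2, the ethanolamine counterpart, was as close between genotypes. WT mice had 127 to 206 with a median of 177, and pKO replicates 1 to 5 had 191, 190.2, 179, 148 and 179. All 5 pKO mice lay within the WT range. Mean levels were 175 ± 28.4 (SD, n = 6) for WT and 178 ± 17.4 (SD, n = 5) for pKO, and the log2 difference was 0.03 (standard error 0.15, adjusted p = 0.97, limma), with an interval from 0.817-fold to 1.27-fold.

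Cept1, which can finish both phosphatidylcholine and phosphatidylethanolamine, was steady in WT mice at 1233 to 1530.3 with a median of 1426. pKO replicates 1 to 5 had 2117, 1288, 1512, 1377 and 1568. Replicate 1 stood apart at the top, and 3 of the pKO mice were within the WT range. The coefficient of variation was 7.21% in WT and 20.6% in pKO mice. WT mice averaged 1408 ± 101 (SD, n = 6) and pKO mice 1572 ± 324 (SD, n = 5), a log2 difference of 0.14 (standard error 0.13, adjusted p = 0.77, limma) with an interval from 0.903-fold to 1.35-fold. Leaving out pKO replicate 1 brought the difference to 0.03. Dennd2d, which overlaps the Cept1 tag, was at 80.4 to 174 over all mice, far below Cept1.

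Chpt1, the choline-specific enzyme of the last step, ranked 10 of 15453 genes by mean level. WT replicates ranged from 41343 to 70159 with a median of 62271, and pKO replicates 1 to 5 had 104853, 91333, 82841, 56664 and 42946. The 3 highest pKO mice exceeded every WT mouse and the other two lay within the WT range. Of all tags, Chpt1 took 0.361% to 0.557% in the WT and 0.367% to 0.835% in the pKO libraries. The WT mean was 59987 ± 10700 (SD, n = 6) and the pKO mean 75727 ± 25399 (SD, n = 5). The log2 difference was 0.28 (standard error 0.23, adjusted p = 0.73, limma), and the interval from 0.862-fold to 1.72-fold of WT shows how little the spread among pKO mice lets this comparison settle. Sycp3, the gene opposite the Chpt1 tag, was at 240.5 to 630.2 over all mice.

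Pemt, the enzyme of the methylation route, had the widest interval of the enzymes. WT mice ranged from 362 to 882 with a median of 702, and pKO replicates 1 to 5 had 889, 799, 588, 685 and 284. The lowest mouse of each genotype, WT replicate 6 and pKO replicate 5, lay well under the others. On average WT mice had 677 ± 173 (SD, n = 6) and pKO mice 649 ± 233 (SD, n = 5), with a log2 difference of -0.11 (standard error 0.28, adjusted p = 0.93, limma) and an interval from 0.607-fold to 1.41-fold. Without pKO replicate 5 the difference turned to 0.16.

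Ordered by mean over the 11 mice, the levels ran Chpt1, Cept1, Slc5a7, Pemt, Slc44a1, Pcyt1a, Chka, Pcyt2 and Slc44a2. Chpt1 was 45.3-fold above Cept1 and higher in 11 of 11 mice, and these were the only neighbours in the order whose ranges did not overlap. Cept1 and Slc5a7 changed places with genotype: Cept1 was the higher in 0 of 6 WT and in 5 of 5 pKO mice. Because this order holds the values that chose Slc5a7, it is a description only. Pcyt1a exceeded Chka in 7 of 11 mice (5 of 6 WT and 2 of 5 pKO). Pcyt2 exceeded Slc44a2 in 8 of 11 (4 of 6 WT and 4 of 5 pKO), so neither pair had a fixed order. The ratio of Chpt1 to Pemt was 78.4 to 114 for WT against 82.7 to 151 for pKO mice, and the genotypes overlapped. Between the parallel branches, Pcyt1a had 1.52 to 2.44 tags for each Pcyt2 tag in WT mice, against 1.59 to 1.97 in pKO mice.

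Several enzymes were high or low in the same mice. pKO replicate 1 was the highest of its genotype in 6 of the 9 genes, namely Chka, Pcyt1a, Pcyt2, Pemt, Cept1 and Chpt1, and the lowest in the carriers Slc5a7 and Slc44a1. WT replicate 6 was the lowest WT mouse in 4 genes, Chka, Pcyt1a, Pemt and Chpt1, and in none the highest. pKO replicate 5 was the lowest of its genotype in Pemt and Chpt1, where its log2 deviations from the genotype mean were -1.09 and -0.74. In pKO replicate 1 those of Pemt and Chpt1 were 0.55 and 0.54, against -0.45 for Slc5a7. That mouse also had the highest sum of mesothelial markers, 2881. Of the 2 measured epididymal epithelium markers it had the highest Adam7, 43.8, but Rnase10 was at 0. WT replicate 6 had the lowest sum of adipocyte markers, 680460, of which Fabp4 gave 471444. In that mouse Plin1, Cidec, Lep and Lipe were also below their WT medians. Its Adipoq, 67910, was above the WT median of 61019, and its Pnpla2, 18687, was the highest of the WT mice. The part of these markers in the members' spread was not tested. Without pKO replicate 1 the Slc5a7 difference was -1.04, the smallest of the range from -1.24 to -1.04 over all 22 alternative analyses.

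**Figure D3:**
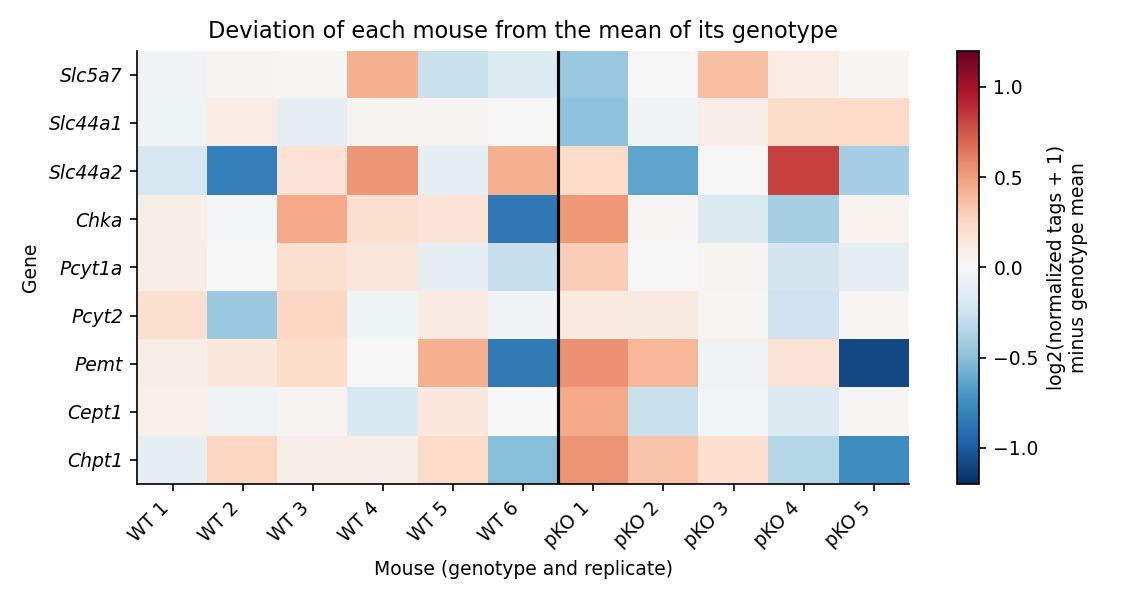
Colour gives, for each gene (rows) and mouse (columns), log2(normalized tags + 1) minus the mean of the mouse's genotype, with 6 WT mice left of the line and 5 pKO mice right of it. Red cells for the enzymes and blue cells for Slc5a7 (-0.45) and Slc44a1 (-0.49) mark pKO replicate 1, and the darkest blue cell is Pemt in pKO replicate 5 (-1.09).

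Other genes of choline and phospholipid metabolism gave 42 measured of 49 listed, 27 of them with a mean of 50 or more. No gene among the 42 passed the adjusted threshold in limma, edgeR or DESeq2, and the lowest adjusted p in limma was 0.48. At an unadjusted p of at most 0.05 in either direction there were 3 of the 42, where 9.55% of all genes passed. These 3, Slc44a3, Mat2a and Ahcy, were all higher in pKO mice, where 4.2% of all genes were higher at that threshold. Of the 42 log2 differences 20 were above and 22 below 0, with a median of -0.03.

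Mat2a makes S-adenosylmethionine, the methyl donor of PEMT, and had 1361 ± 487 (SD, n = 6) for WT against 1972 ± 506 (SD, n = 5) for pKO, a log2 difference of 0.56 (standard error 0.25, adjusted p = 0.50, limma). Ahcy, which removes the S-adenosylhomocysteine left by methylation, had 647 ± 114 (SD, n = 6) for WT against 852 ± 177 (SD, n = 5) for pKO, a difference of 0.39 (standard error 0.16, adjusted p = 0.48, limma). Slc44a3, a relative of Slc44a1, had only 40.1 ± 4.91 (SD, n = 6) for WT against 55.4 ± 13.7 (SD, n = 5) for pKO, a difference of 0.43 (standard error 0.19, adjusted p = 0.49, limma). All 3 missed the adjusted threshold, and the lowest pKO mouse lay within the WT range in each.

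Among the other carriers, the organic cation transporter Slc22a3 had 372 ± 125 (SD, n = 6) for WT against 319.7 ± 108 (SD, n = 5) for pKO, with a log2 difference of -0.23 (standard error 0.29). Etnk1, the ethanolamine kinase, was far above Chka at 1554 ± 221 (SD, n = 6) for WT against 1700.2 ± 300.1 (SD, n = 5) for pKO, with a difference of 0.13 (standard error 0.14). Ptdss1, which exchanges the choline head group for serine, differed by 0.43 (standard error 0.35), with 236 and 282 in WT replicates 2 and 5 and at least 582 in each other mouse. Sardh, of choline oxidation, differed by -0.19 (standard error 0.13). None of these 4 passed the adjusted threshold.

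Genes that take phosphatidylcholine apart or remake it were also without a call. Lypla1, a lysophospholipase, had 3789 to 5008 in WT mice, and 4294, 5206, 3748, 4227 and 801 in pKO replicates 1 to 5. Only replicate 5 was far below the rest, and without it the log2 difference moved from -0.50 (standard error 0.38) to -0.02. Lpcat3, which reacylates lysophosphatidylcholine, differed by -0.14 (standard error 0.12), at 1525 ± 138 (SD, n = 6) for WT against 1388 ± 186 (SD, n = 5) for pKO. Sgms1, which moves phosphocholine from phosphatidylcholine to ceramide, differed by -0.09 (standard error 0.21).

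**Figure D4:**
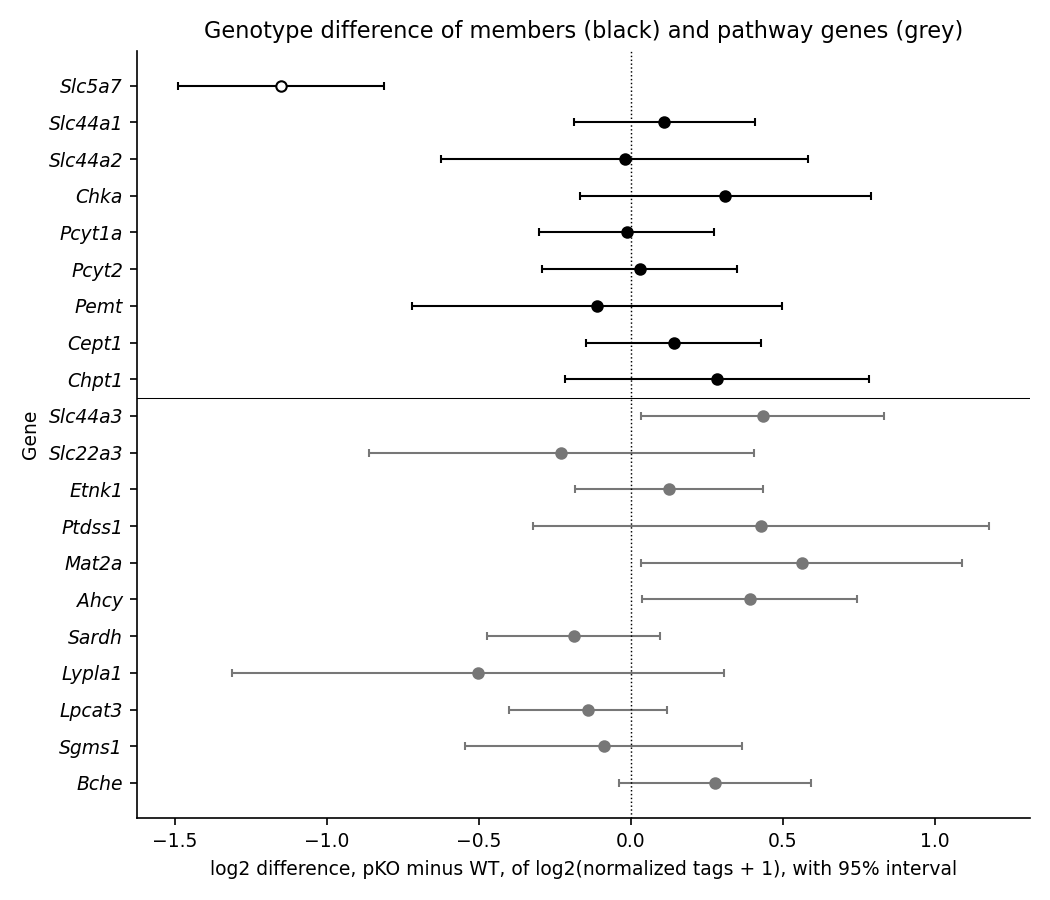
Points give the log2 difference, pKO minus WT, of log2(normalized tags + 1) with 95% intervals from limma (6 WT and 5 pKO mice), for the 9 measured genes in black and 11 pathway genes in grey. The open Slc5a7 point (-1.15) was chosen for its difference and is a description, and the intervals of the 8 tested members, in filled black, all cross 0.

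Within the 6 WT mice, the level of Mest was compared with each of the 9 members, since Mest varied from 20756 to 27897 there. None of the 9 relations passed exact permutation tests (two-sided, Benjamini-Hochberg over 9 relations), with adjusted p of 0.57 to 0.96 for Pearson's r. Slc5a7 had r = -0.05 (n = 6, exact permutation p = 0.92) and rho = -0.31 (exact p = 0.56, adjusted 0.85), and r = 0.06 without the 2 mice farthest from the median of Mest. The strongest rank relation was that of Chpt1, with rho = -0.83 (n = 6, exact permutation p = 0.058, adjusted 0.46) and r = -0.58 (exact p = 0.24, adjusted 0.57). Without the 2 farthest mice, which leaves 4, its r was -0.97. With 1 WT mouse left out, the r of Chpt1 ran from -0.80 to -0.36, weakest without WT replicate 6. Pemt had rho = -0.77 (n = 6, exact permutation p = 0.10, adjusted 0.46) and r = -0.53 (exact p = 0.25, adjusted 0.57), and r = -0.95 without the 2 farthest. Its r with 1 WT mouse left out ran from -0.65 to -0.23, again weakest without WT replicate 6.

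The genes whose levels followed Slc5a7 most closely were found from Pearson's r of log2 values over the 11 mice after the genotype means were subtracted, among 9905 genes. They were Tank (r = 0.94), Tubgcp5 (0.91), Dpy19l1 (0.91), Mmd (0.91) and Ankrd50 (0.87). These 5 were picked as the highest of many, so their r values are a description. The ranges of all 5 overlapped between genotypes, as with Tank at 879 to 1275 in WT and 891 to 1327 in pKO mice.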

How the data were processed

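The authors cut tags from poly(A)-primed cDNA with NlaIII, sequenced them on a SOLiD system and assigned them to genes with a modified SOLiD SAGE program. The submitters' notes name mm10 and edgeR 3.2.3, and the annotation is not given in the sources used here. The values deposited by the authors are a signal, tag counts divided by a library size factor. Each value was within 0.02 of a whole number of tags, 100% of values, so tag counts were recovered. Log2(value + 1) of all 15453 genes was tested with limma 3.58.1 (trend), with Benjamini-Hochberg adjustment over all genes. Calls required an adjusted p of 0.1 or less and a mean of 50 or more in 1 genotype. Differences are pKO minus WT and understate low genes. edgeR 4.0.16 (quasi-likelihood) called 5 genes and DESeq2 1.42.0 called 121 from the recovered counts. The fits were tested on counts simulated with the same dispersion for every gene. That test does not cover genes that vary as widely between mice as some members did. Named pathway genes were the most abundant measured gene of each list and any at an unadjusted p of at most 0.05. Members and lists were chosen with earlier results of these data known. Chkb was planned but not measured, which left 9 relations with Mest and 8 tested members. All pairs of libraries differed by more than sampling noise (lowest chi-square over its degrees of freedom, 18.96). No sequencing batch is given.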

Additional observations from a re-analysis of the deposited data

Results flagged for a closer look

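Pcyt2 in pKO replicate 4, at 148 normalized tags, stood below the 179 to 191 of the other pKO mice by more than Dixon's limit for 5 values. It was the 1 flag among 42 groups of mice examined, where chance flags about 1 in 20.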

How the results depend on the processing

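The count of called members stayed at 0 of 8, and that of other pathway genes at 0, in all alternatives run. Slc5a7 kept its direction in 22 of 22, which is a description only, since it was chosen for its difference in these mice. Over all genes, 4 were lower and 1 higher in pKO mice. The counts became 63 and 58 with DESeq2, 9 and 2 with at least 10 tags in every library, and 2 lower at an adjusted p of at most 0.05. With 1 mouse left out they ran from 2 to 65 lower and from 1 to 26 higher, the highest without pKO replicate 2. The cause was not tested. In a fit with a replicate block, which drops WT replicate 6, 1 gene was lower and 0 higher, and Slc44a2 turned to 0.0644. Mice of equal number were on average no more alike than others. Their deviations correlated at -0.092 to 0.14, with a mean of -0.024 against 0.0046 for unequal numbers. Whether equal numbers stand for a shared litter is not given in the sources used here.

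Signs turned for 6 genes, none of them called. Slc44a2 was 0.0087 with edgeR and 0.0101 with DESeq2, and Pcyt2 was -0.0054 with total-count scaling. With 1 mouse left out, log2 differences ran from -0.22 to 0.14 for Slc44a2, -0.0868 to 0.0426 for Pcyt1a, -0.0604 to 0.0923 for Pcyt2, -0.28 to 0.16 for Pemt, -0.41 to 0.0154 for Slc22a3 and -0.30 to 0.0821 for Sgms1. Relations with Mest in WT mice turned to r = 0.23 for Slc5a7, 0.22 for Pcyt2 and 0.29 for Cept1 with total-count scaling. With 1 WT mouse left out, r ran from -0.60 to 0.14 for Slc5a7, -0.76 to 0.77 for Slc44a1, -0.71 to 0.74 for Pcyt2 and -0.23 to 0.21 for Cept1. Depth was ample for every member, and the spread between 5 or 6 mice sets the intervals.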

Other observations

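Slc44a4, a choline carrier of epithelia, was listed at 54.4 and 39.6 normalized tags in WT replicates 4 and 5 and at 64.4 in pKO replicate 1, and at 9.16 or less in each other mouse. In these 3 mice the epithelial keratin Krt8 was at 98.1, 70.4 and 198, its highest values of the 11, and Adam7, a gene of epididymal epithelium, was at 7.77, 26.1 and 43.8. Adam7 was also at 13.4 in WT replicate 3 and 9.16 in pKO replicate 3, and Rnase10, the other measured gene of that epithelium, was at 0 in WT replicate 4 and pKO replicate 1. Etnk2, an ethanolamine kinase, had its highest value, 16.3, in the same pKO replicate 1. These genes were singled out after their values were seen.

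Pld1, a phospholipase D that releases choline from phosphatidylcholine, was at 21.5 and 18.3 in WT replicates 2 and 5 and at 140 to 212 in the other 9 mice. The low values fell in the mice where Ptdss1 was low (236 and 282), and there Itgax, a marker of inflammatory macrophages, was at 368 and 288 against 707 to 959 in the other WT mice. In pKO mice Itgax was at 192 to 474, lowest in replicates 1 and 2, whose Pld1 was at 183 and 140. Pla2g4a, a phospholipase that acts on phosphatidylcholine, was lowest in pKO replicate 3, at 10.2. These values were also noticed after the fact and were not tested.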
